A study of Mus musculus with 4 samples.

Results

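Smooth muscle and pericyte genes were examined in mouse ovaries at E13.5 (days of embryonic development) that overexpress Sall1. The set holds 10 named genes of the 34682 in the count table, all of them found by symbol. Of these, 6 encode parts of the contractile and cytoskeletal apparatus (Acta2, Tagln, Myh11, Cnn1, Des and Actg2) and 4 mark mural cells, the cells that wrap blood vessels (Rgs5, Cspg4, Abcc9 and Kcnj8). RNA was measured in 2 mutant and 2 wild-type libraries of developing ovaries, numbered replicate 1 and 2 in each genotype, and p-values measure only the spread between these libraries, since nothing in the labels ties them to separate animals.

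The mutants carry a large genomic insert, a BAC, in which the coding sequence of Sall1 replaces that of Wt1 and is driven by the Wt1 regulatory elements, active in gonadal somatic cells. The insert was delivered with the PiggyBac transposon to XX embryonic stem cells, and aggregating these cells with morulae gave the animals. The stem cells had a C57BL/6J or a C57BL/6J-129 hybrid background, and the columns of the mutants name no strain. The wild-type libraries come from ovaries of the same age without the insert. The study describes them as littermates in one place and as CD1 gonads in another, and the count columns of the wild-type libraries give B6, a short name for C57BL/6. Littermates or B6 ovaries could share the strain of the mutants and CD1 ovaries would not, so a difference in strain and the genotype cannot be told apart. How much mesonephros or other attached tissue stayed on the dissected ovaries is not given in the sources used here. Sall1 had 1243 and 1445 counts in the mutant and 279 and 223 counts in the wild-type libraries, or 2.85 higher on the log2 scale (standard error 0.16, edgeR quasi-likelihood adjusted p = 0.00823).

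Smooth muscle contracts when myosin heads pull on filaments of smooth muscle actin, with calponin and related proteins tuning the interaction and desmin filaments tying the cell together. Pericytes are the mural cells of capillaries. They lie against the endothelium, share part of the contractile program and carry an ATP-sensitive potassium channel that sets their membrane potential. In the fetal gonad such cells accompany the growing vessels and the bordering mesonephric mesenchyme. The contractile genes are known targets of serum response factor, which binds the CArG box in their control regions together with its cofactor myocardin.

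Promoters of 7 of the 10 genes were matched in RefSeq by symbol (GRCm38.p6), each from 250 bases before to 50 bases after the transcription start. Tagln, Myh11 and Actg2 had no entry. The promoters of Acta2 and Des are shown because these contractile genes differed most firmly between the replicates, and those of Abcc9 and Kcnj8 because they are subunits of one channel. Capitals mark CArG boxes with 1 inner base that is not A or T, and the motif CATTCC (read on either strand), known as the MCAT element.
Acta2, chr19:34255324-34255623, minus strand: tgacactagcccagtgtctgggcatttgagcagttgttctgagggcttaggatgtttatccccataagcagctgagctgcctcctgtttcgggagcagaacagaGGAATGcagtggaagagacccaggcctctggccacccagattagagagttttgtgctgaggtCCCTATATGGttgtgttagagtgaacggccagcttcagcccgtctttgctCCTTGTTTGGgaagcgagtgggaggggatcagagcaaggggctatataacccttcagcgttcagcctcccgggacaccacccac
Des, chr1:75360042-75360341, plus strand: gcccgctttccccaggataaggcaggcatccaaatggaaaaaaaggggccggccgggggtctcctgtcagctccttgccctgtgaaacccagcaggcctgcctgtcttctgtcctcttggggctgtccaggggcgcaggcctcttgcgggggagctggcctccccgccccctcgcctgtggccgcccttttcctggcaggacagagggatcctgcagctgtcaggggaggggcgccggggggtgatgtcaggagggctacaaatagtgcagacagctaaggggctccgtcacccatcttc
Abcc9, chr6:142702225-142702524, minus strand: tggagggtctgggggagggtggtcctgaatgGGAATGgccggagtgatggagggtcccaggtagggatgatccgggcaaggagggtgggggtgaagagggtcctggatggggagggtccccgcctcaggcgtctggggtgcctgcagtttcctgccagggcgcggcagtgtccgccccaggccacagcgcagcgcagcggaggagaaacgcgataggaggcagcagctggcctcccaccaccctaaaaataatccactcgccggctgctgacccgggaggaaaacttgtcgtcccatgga
Kcnj8, chr6:142571565-142571864, minus strand: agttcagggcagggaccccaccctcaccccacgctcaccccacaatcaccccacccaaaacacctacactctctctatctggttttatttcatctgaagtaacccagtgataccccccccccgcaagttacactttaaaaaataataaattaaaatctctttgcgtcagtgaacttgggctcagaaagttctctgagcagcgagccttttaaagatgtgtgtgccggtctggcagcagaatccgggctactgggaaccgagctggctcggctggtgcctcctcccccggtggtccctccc

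The Acta2 promoter held 2 CArG boxes with 1 inner base other than A or T, CCCTATATGG from base -84 to -75 and CCTTGTTTGG from base -34 to -25, counted from the transcription start. It was the only one of the 7 promoters with such a box, against 8.50% of all 32851 promoters of this length. A strict CArG box was in none of the 7 and in 1.63% of all promoters. The motif CATTCC was in the promoters of Acta2 and Abcc9 and in 14.7% of all promoters. The E-box CANNTG, searched on both strands, was in 6 of the 7 and in 72.3% of all promoters, and overlapped none of the marked sites in Acta2. These matches describe letters in a short window and not binding.

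Library totals ranged from 11036313 to 17869840 counts, and a floor of 3 counts, under which a gene was read as not detected, corresponded to 0.170 to 0.272 CPM (counts scaled to library size after TMM normalization). Such floors cover counting error only. The labelled tissue was recognisable in all 4 libraries, where the summed level of 8 ovarian somatic markers such as Foxl2 and Fst lay between 1292 and 1472 CPM and that of 6 germ cell markers such as Ddx4 and Dazl between 1394 and 1615 CPM. Markers of striated muscle and blood differed several-fold between the libraries and are given below beside the differences between the replicates.

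Acta2, smooth muscle alpha actin, was the most abundant of the 10 genes. Per length of annotated exons its level was 22.3 CPM per kilobase averaged over the 4 libraries, with a range from 12.8 to 32.7. Tagln, the actin-binding transgelin, followed at 7.81 CPM per kilobase (6.79 to 8.87). Des, Myh11, Kcnj8, Abcc9 and Cspg4 came next at 5.10, 4.29, 3.62, 3.20 and 2.91 CPM per kilobase, and in this order the range of each gene overlapped that of its neighbour. Rgs5 lay lower at 0.865 CPM per kilobase (0.716 to 0.972). Actg2 and Cnn1 were lowest at 0.367 and 0.214 CPM per kilobase, with overlapping ranges. Cnn1 (calponin) and Actg2 (smooth muscle gamma actin), both markers of mature smooth muscle, had between 1 and 16 counts in any library. The transcripts of smooth muscle myosin (Myh11) and alpha actin were therefore well covered while 2 defining markers of mature smooth muscle lay near the floor. The comparisons below use CPM, not levels per length.

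Of the 10 genes, 9 passed the filter on low counts and were tested, and Cnn1 did not. None of the 9 passed the threshold of 0.05 on the adjusted p from edgeR, where 0.0583% of the 15442 genes tested were called (0.0453% lower in the mutant). DESeq2 called 0 of them and gave Actg2 no adjusted p, where 0.694% of all genes with an adjusted p were called. At an unadjusted p under 0.05 edgeR gave 1 of the 9 genes, Cspg4, beside 5.69% of all genes. The median log2 fold change of the 9 genes was -0.17, with 6 lower and 3 higher, beside a median of -0.00088 over all genes tested. Without mutant replicate 1 the median was -0.35, and without mutant replicate 2 it was 0.013. Exact permutation of 2 against 2 libraries cannot give a single gene a p below 0.333, so single genes rest on the spread shared across genes by the model. In bulk RNA, fewer cells of a type and less RNA per cell cannot be told apart.

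**Figure D1:**
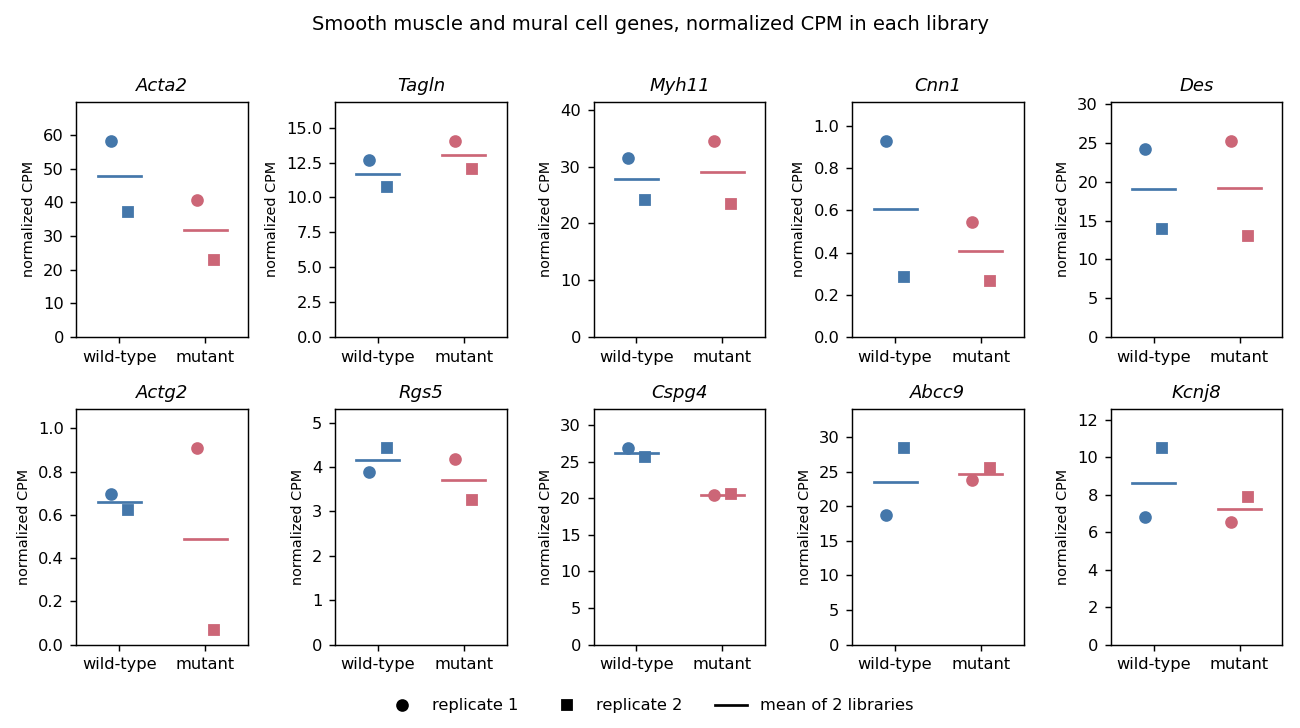
Normalized CPM (vertical axis, from 0) of the 10 genes in each library, with circles for replicate 1, squares for replicate 2 and lines for the mean of the 2 libraries. Mutant and wild-type points overlap for 9 of the 10 genes, and Cspg4 is the exception, with both mutant libraries at 20.5 CPM.

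Acta2 had 40.6 and 22.7 CPM in the mutant libraries of replicates 1 and 2, against 58.2 and 37.1 CPM in the wild-type libraries. The lower wild-type library lay below the higher mutant library, so the groups overlapped, although the mutant was lower within each replicate number. Mutant ovaries averaged 31.6 ± 12.6 CPM (SD, n = 2), and wild-type ovaries 47.7 ± 14.9 CPM (SD, n = 2). Its fitted log2 difference was -0.60 (standard error 0.30, 95% interval -1.32 to 0.12, adjusted p = 1.00, edgeR). Without mutant replicate 1, the same test, which then takes the lone mutant library to vary like the others, gave -1.07 (adjusted p = 0.0487, edgeR). Without the other libraries in turn the estimate lay between -0.23 and -0.88.

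Tagln, which stabilises actin bundles in smooth muscle, had 14.1 and 12.0 CPM in the mutant and 12.7 and 10.8 CPM in the wild-type libraries. It was the only gene of the set that was higher in the mutant at both replicate numbers, with log2 ratios of 0.15 and 0.16. Its log2 fold change of 0.15 (95% interval -0.28 to 0.59) did not pass (adjusted p = 1.00, edgeR). Exons of Tagln overlap those of Pcsk7 on the opposite strand in GENCODE M1, and whether strands were kept apart in the counting is not given in the sources used here.

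Myh11, the smooth muscle myosin heavy chain, had 34.6 and 23.4 CPM in the mutant and 31.6 and 24.1 CPM in the wild-type libraries. Des, the intermediate filament desmin of all muscle types, had 25.3 and 13.0 CPM in the mutant and 24.3 and 13.9 CPM in the wild-type libraries. For both genes the 2 genotypes were close within each replicate number and the distance between the replicates was the larger one. The log2 fold change was 0.050 (95% interval -0.47 to 0.57) for Myh11 and -0.0051 (95% interval -0.86 to 0.85) for Des. Des exons overlap Gm15179 on the opposite strand.

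Cnn1 had 6 and 4 counts in the mutant and 16 and 5 counts in the wild-type libraries, or 0.544, 0.266, 0.930 and 0.283 CPM. Actg2 had 10 and 1 counts in the mutant and 12 and 11 counts in the wild-type libraries. The low library of Actg2, mutant replicate 2, was below the floor of 3 counts, and its log2 fold change of -0.55 (95% interval -2.70 to 1.60) is not informative at this depth. Actins share long stretches of sequence, but only 0.404% of the 50-base windows of the longest Acta2 transcript occurred identically in a coding transcript of another gene, which was Actg1, and 0% of those of Actg2 did.

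**Figure D2:**
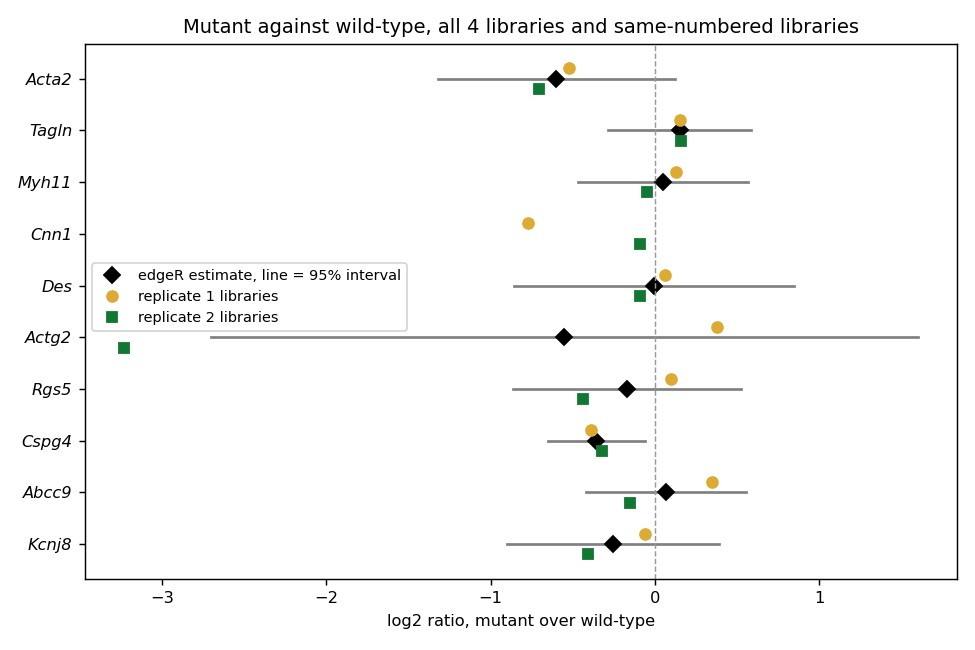
Log2 ratio of mutant to wild-type for the 10 genes (horizontal axis), with diamonds for the edgeR estimate over 4 libraries, grey lines for its 95% interval, circles for the replicate 1 libraries and squares for the replicate 2 libraries. Acta2, Cnn1, Cspg4 and Kcnj8 are below 0 at both replicate numbers, Tagln is above 0 at both, and the interval excludes 0 only for Cspg4.

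Among the mural genes, Cspg4, the NG2 proteoglycan of the pericyte surface, had 20.5 CPM in both mutant libraries and 26.9 and 25.7 CPM in the wild-type libraries. It was the only gene of the set whose groups did not overlap, which 30.9% of all genes tested also did in one direction or the other (15.1% with the mutant below). Its log2 fold change was -0.36 (standard error 0.12, 95% interval -0.65 to -0.061, adjusted p = 0.744, edgeR). The log2 ratio was -0.39 between the replicate 1 libraries and -0.32 between the replicate 2 libraries. With each library left out in turn it lay between -0.32 and -0.38.

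Rgs5, a regulator of G-protein signalling and a classical pericyte marker, had 4.17 and 3.26 CPM in the mutant and 3.89 and 4.42 CPM in the wild-type libraries. Its groups overlapped and the 2 replicate numbers pointed in opposite directions, with log2 ratios of 0.10 and -0.44. The log2 fold change was -0.17 (95% interval -0.86 to 0.53).

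Kcnj8 and Abcc9 encode the pore Kir6.1 and the sulfonylurea receptor SUR2 of the vascular ATP-sensitive potassium channel. They are neighbours on the minus strand, at chr6:142513459-142519876 and chr6:142536382-142650794 of mm9 by GENCODE M1, with 16505 bases and 0 annotated genes between them. Abcc9 had 23.8 and 25.6 CPM in the mutant and 18.7 and 28.4 CPM in the wild-type libraries. Kcnj8 had 6.53 and 7.91 CPM in the mutant and 6.80 and 10.5 CPM in the wild-type libraries. For both genes the mutant values lay close together, and those of Abcc9 lay inside the wild-type range. The log2 fold change was 0.068 (95% interval -0.42 to 0.55) for Abcc9 and -0.26 (95% interval -0.90 to 0.39) for Kcnj8. Kcnj11 and Abcc8, which form the channel of the pancreatic beta cell, were at most 1.30 CPM in any library and did not pass either (adjusted p = 1.00 for both, edgeR).

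Set side by side by replicate number, 4 of the 10 genes (Acta2, Cnn1, Cspg4 and Kcnj8) were lower in the mutant in both comparisons, 1 (Tagln) was higher in both, and 5 changed sign. Over all genes tested, 27.3% were lower in both and 26.5% were higher in both. Each of these comparisons has 1 library a side and no test.

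For most of the genes tested in this set the fitted difference between the replicates was larger than that between the genotypes. Cspg4 and Rgs5 were the exceptions. Their fitted log2 values were -0.36 and -0.17 for genotype and -0.034 and -0.064 for replicate 2 against replicate 1. All 6 contractile genes were lower in replicate 2 than in replicate 1 in both genotypes. Of the 4 mural genes 0 were, and Abcc9 and Kcnj8 were higher in replicate 2 in both. For Cnn1, which was not tested, and Actg2 the direction rests on few counts. Cnn1 had 6 and 4 in mutant replicates 1 and 2, and Actg2 had 12 and 11 in wild-type replicates 1 and 2. Of the 9 genes tested, 5 were lower and 2 higher in replicate 2 in both genotypes. Over all genes tested, 32.6% were lower and 29.7% higher in replicate 2 in both genotypes. The log2 ratio of replicate 2 to replicate 1 was -0.84 in mutant and -0.65 in wild-type ovaries for Acta2, -0.96 and -0.81 for Des, and -0.56 and -0.39 for Myh11. It was -0.23 in both genotypes for Tagln. Abcc9 had 0.11 in mutant and 0.60 in wild-type ovaries, and Kcnj8 had 0.28 and 0.62.

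The replicate number was tested as a term beside genotype in an edgeR fit of all 4 libraries, a test added after the data had been seen. With both terms fitted to 4 libraries, little spread is left within each gene. The p-values of this fit, for replicate and for genotype, therefore rest mostly on the spread shared across genes. It called 3 of the 9 genes lower in replicate 2, where 2.73% of all genes tested were lower, and 0 higher, where 1.56% of all genes were higher. Des fell by 0.88 on the log2 scale (standard error 0.14, adjusted p = 0.00158, edgeR). Acta2 fell by 0.73 (standard error 0.11, adjusted p = 0.00101, edgeR). Myh11 fell by 0.47 (standard error 0.12, adjusted p = 0.0345, edgeR). Abcc9 and Kcnj8 had log2 values of 0.36 (95% interval 0.065 to 0.66) and 0.46 (95% interval 0.028 to 0.90), with adjusted p of 0.183 and 0.253. DESeq2 with the same terms called only Acta2 (adjusted p = 0.0297), with 0.0955 for Des and 0.842 for Myh11. With RLE normalization and with no filter on low counts Myh11 did not pass. In the same fits the genotype term called 1 of the 9 genes with edgeR (Acta2, adjusted p = 0.00571), where 2.49% of all genes were called, and 0 with DESeq2, where 0.759% were. The labels do not say what a replicate number stands for, but in the names of the count columns the libraries of one replicate number carry consecutive library numbers.

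Markers of striated muscle shared the direction of the contractile genes between replicates, but not the size. Over the 14 tested, the median log2 ratio of replicate 2 to replicate 1 was -2.11 in mutant and -3.55 in wild-type ovaries. That fall was larger in wild-type ovaries, whereas Acta2, Des and Myh11 fell more in mutant ovaries. Each of these falls has 1 library a side, and the difference between them was not tested. The summed level over 16 striated muscle genes was 139 and 81.2 CPM in mutant replicates 1 and 2. In wild-type replicates 1 and 2 it was 371 and 84.1 CPM. Of the 14 tested, all 14 were lower in replicate 2 in both genotypes and 13 passed the test of the replicate term. Actc1, the cardiac alpha actin also made by embryonic skeletal muscle, had 12.9 and 0.997 CPM in the mutant and 61.3 and 2.78 CPM in the wild-type libraries, and Myh3, the embryonic myosin heavy chain, had 5.26, 1.40, 91.7 and 1.36 CPM. Of the defining markers, Myh8 was at 0 counts in all libraries, and Ckm had at most 2 counts. Tnni1, a troponin that was the one marker not past that test, made up most of the sum in replicate 2, at 65.1 CPM in the mutant and 63.4 CPM in the wild-type library. Without it, a choice made after its values were seen, the sum was 68.0 and 16.1 CPM in the mutant and 305 and 20.7 CPM in the wild-type libraries. Between genotypes, 9 of the 14 markers were lower in the mutant at both replicate numbers, as Acta2 and 27.3% of all genes tested were. The edgeR fit with the replicate term that called Acta2 called 6 of the 14 lower in the mutant. It called 2.49% of all genes tested in either direction. Without that term 0 of the 14 were called. Embryonic striated muscle is also known to express Acta2 and Des. Blood markers also fell in replicate 2, with 3180 and 882 CPM in the mutant and 3484 and 1681 CPM in the wild-type libraries over 8 genes. Endothelial markers such as Pecam1 and Cdh5, the lining that mural cells cover, did not fall in both genotypes when summed. They had 553 and 525 CPM in the mutant and 571 and 605 CPM in the wild-type libraries over 12 genes. Of these, 0 passed the test of the replicate term. Further lists went in both directions between the replicates. In both genotypes 5 of 8 stromal markers were lower and 0 higher, and 5 of 8 ovarian somatic markers were lower and 1 higher. Of the lists given below, 14 of 25 other contractile genes were lower and 2 higher, and 11 of 16 regulators were lower and 0 higher. Of 19 other mural genes 3 were lower and 6 higher, as were 3 and 6 of the 17 signal genes. Of 12 endothelial markers 2 were lower and 3 higher. Of 7 mesonephric markers tested 2 were lower and 3 higher, and of 6 germ cell markers 1 was lower and 3 higher. The 4 genes of ATP-sensitive potassium channels, Kcnj8 and Abcc9 among them, were all higher. Over all genes tested 32.6% were lower and 29.7% higher. The part of striated muscle, blood or other tissue in the result was not tested.

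**Figure D3:**
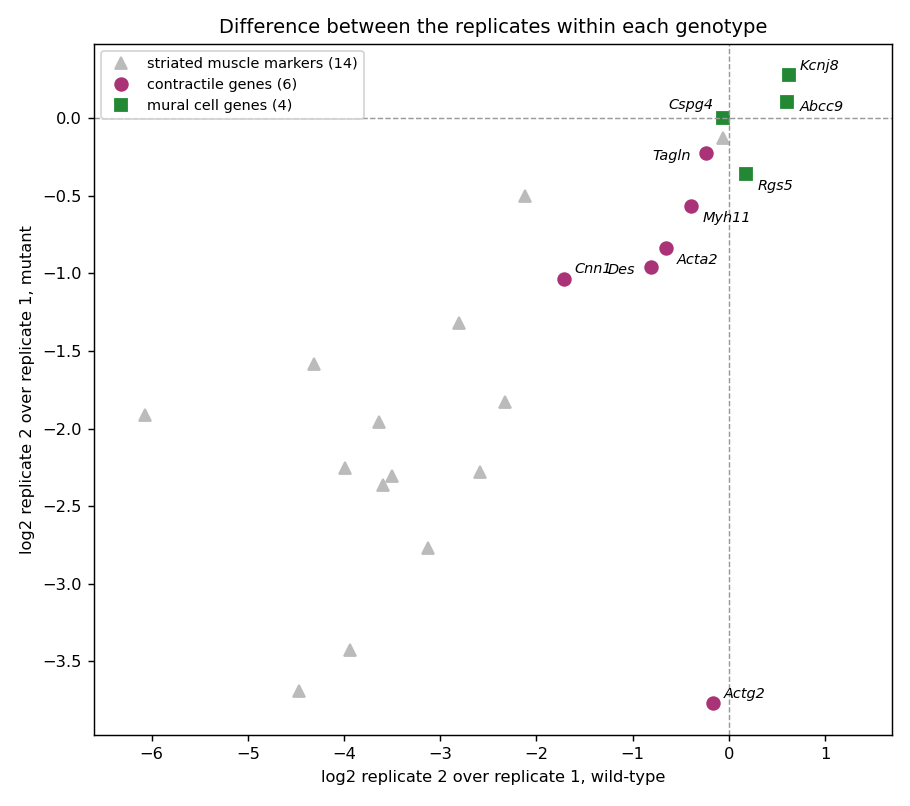
Log2 ratio of replicate 2 to replicate 1 in wild-type (horizontal axis) and mutant ovaries (vertical axis), with circles for the 6 contractile genes, squares for the 4 mural genes and grey triangles for the 14 striated muscle markers tested. The contractile genes and the striated markers all lie at the lower left. The striated medians, -3.55 in wild-type and -2.11 in mutant ovaries, are further out than Acta2, Des, Myh11 and Tagln. Abcc9 and Kcnj8 lie in the upper right, and the position of Actg2 rests on 1 count in mutant replicate 2.

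Around these genes, the wider contractile and mural programs were read from lists of further genes. Of 26 other contractile genes, 25 were tested and 0 passed edgeR's test, with a median log2 fold change of -0.061 (10 higher, 15 lower). DESeq2 called 1, where 0.694% of all genes with an adjusted p were called. The gene was Cald1, which encodes caldesmon, an actin-binding brake on smooth muscle myosin. Cald1 had 202 and 179 CPM in the mutant and 265 and 311 CPM in the wild-type libraries, lower by a fitted log2 value of -0.60 (standard error 0.11, adjusted p = 0.266 in edgeR, 0.00210 with the replicate term and 0.00163 in DESeq2). Csrp1, a LIM protein of smooth muscle, had 41.2 and 40.7 CPM in the mutant and 53.0 and 57.2 CPM in the wild-type libraries (adjusted p = 0.458, edgeR, and 0.0386 with the replicate term). Tpm2, the beta tropomyosin of smooth and striated muscle, had 23.0 and 14.6 CPM in the mutant and 40.9 and 19.3 CPM in the wild-type libraries, with overlapping groups. Its adjusted p for genotype was 1.00 in edgeR and 0.0206 with the replicate term. Between replicates it fell by 0.89 on the log2 scale in replicate 2 (adjusted p = 0.00126, edgeR). The cytoplasmic actins Actg1 and Actb and the actin crosslinker Flna, the most abundant of the list, had log2 fold changes of 0.0012, -0.025 and -0.067.

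Of 18 regulators of the smooth muscle and mural state, 17 were in the table, 16 were tested and 0 passed with edgeR or DESeq2, with a median log2 fold change of -0.12. Nr2f2, a nuclear receptor of mesenchyme and veins, had 67.7 and 44.8 CPM in the mutant and 85.9 and 69.6 CPM in the wild-type libraries (log2 fold change -0.47, adjusted p = 0.891, edgeR, and 0.0159 with the replicate term). Tbx18, which marks mural cells and mesenchyme around the urogenital tract, had 42 and 24 counts in the mutant and 23 and 2 counts in the wild-type libraries. The count in wild-type replicate 2 was below the floor of 3. Its log2 fold change of 1.87 had a 95% interval from -0.23 to 3.98 (adjusted p = 0.956, edgeR, and 0.0303 with the replicate term). The log2 ratio of replicate 2 to replicate 1 was -1.26 in mutant and -3.56 in wild-type ovaries (adjusted p = 0.0448, edgeR replicate term). Mkl2, a cofactor of serum response factor, and Gata6 were abundant and had log2 fold changes of 0.011 and 0.034. Chosen after their values were seen, Srf itself had 63.4 and 48.9 CPM in the mutant and 65.4 and 56.4 CPM in the wild-type libraries, and Myocd, the myocardin gene, had 17 and 12 counts in the mutant and 38 and 29 in the wild-type libraries. Neither passed (adjusted p = 1.00 for both, edgeR).

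Of the other mural genes, 19 of 23 were tested and 1 passed edgeR's test, where 0.0583% of all genes tested did. The list's median log2 fold change was -0.26, with 16 lower and 3 higher. Gucy1a3, the alpha subunit of the soluble guanylate cyclase through which nitric oxide relaxes smooth muscle, had 89.7 and 76.8 CPM in the mutant and 177 and 186 CPM in the wild-type libraries. It fell by 1.13 on the log2 scale (standard error 0.11, adjusted p = 0.0416, edgeR), and the groups lay far apart. The adjusted p was 0.103 without wild-type replicate 1 and 0.162 without wild-type replicate 2, with estimates of -1.16 and -1.08. Its partner subunit Gucy1b3 had 22.4 and 19.1 CPM in the mutant and 26.9 and 39.0 CPM in the wild-type libraries (log2 fold change -0.67, standard error 0.20, adjusted p = 0.585, edgeR, and 0.0349 with the replicate term).

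Ednra, the endothelin receptor by which mural cells constrict, had 34.4 and 35.4 CPM in the mutant and 67.4 and 65.6 CPM in the wild-type libraries. The replicates of each genotype lay close together and the genotypes far apart. The fitted log2 difference was -0.93 (standard error 0.11, adjusted p = 0.0624 in edgeR, 0.000103 with the replicate term and 6.47e-06 in DESeq2). Anpep, the aminopeptidase CD13 of pericytes and of several epithelia, was higher in the mutant at 186 and 170 CPM against 117 and 103 CPM (log2 fold change 0.69, standard error 0.10, adjusted p = 0.144 in edgeR, 0.000186 with the replicate term and 0.000117 in DESeq2). Pdgfrb, the receptor that recruits pericytes, had 83.1 and 80.7 CPM in the mutant and 91.7 and 103 CPM in the wild-type libraries (log2 fold change -0.25, adjusted p = 0.859, edgeR). Gjc1, a gap junction gene, did not separate the genotypes (log2 fold change -0.0086, 95% interval -0.26 to 0.25). Several of these genes are also made by stromal cells. Of 8 stromal markers, 6 had a negative and 2 a positive log2 fold change. At both replicate numbers 3 were lower in the mutant, as 27.3% of all genes tested were. Of the 8, edgeR called 0 and DESeq2 3 (Pdgfra, Tcf21 and Lum, all lower), where DESeq2 called 0.694% of all genes with an adjusted p. The stromal markers summed to 2773 and 1771 CPM in the mutant and 2502 and 2566 CPM in the wild-type libraries. Their part in these differences was not tested. At 2 of the defining pericyte markers, Higd1b and P2ry14, no library had more than 4 counts.

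**Figure D4:**
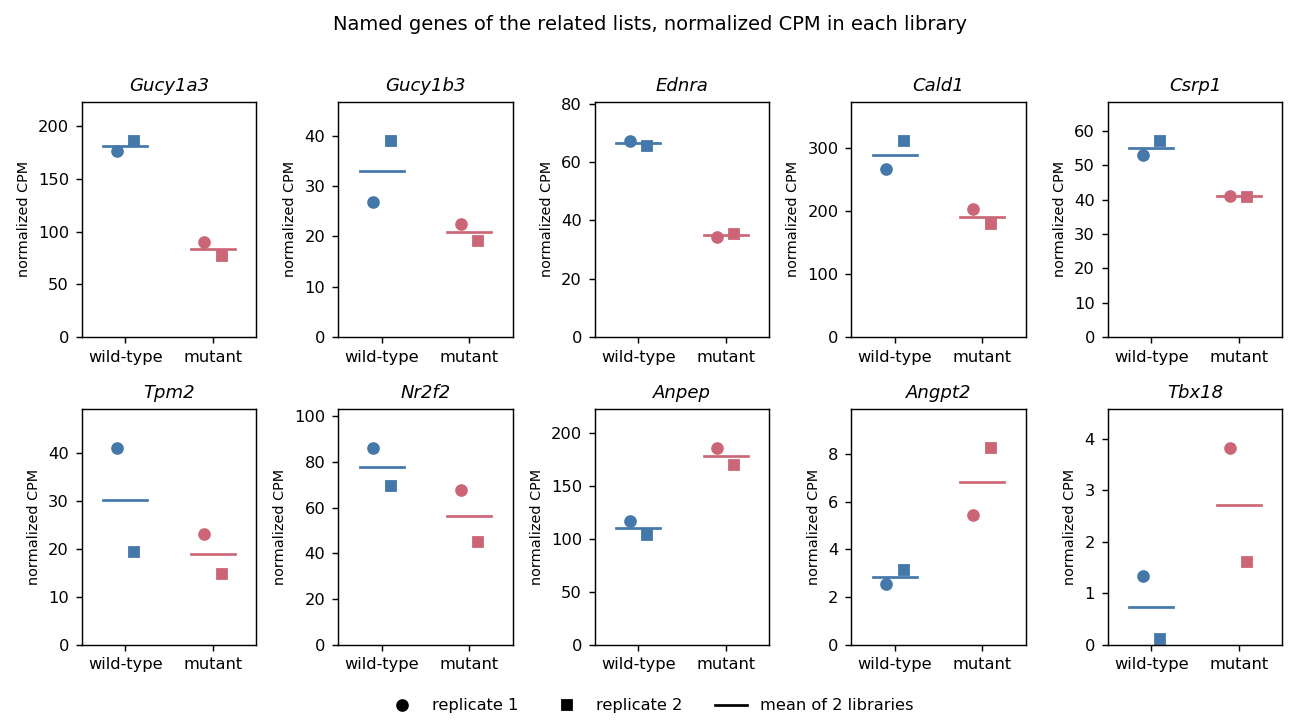
Normalized CPM (vertical axis, from 0) in each library of 10 genes of the related lists, with circles for replicate 1, squares for replicate 2 and lines for the mean of the 2 libraries. Both mutant libraries lie below both wild-type libraries for Gucy1a3, Gucy1b3, Ednra, Cald1, Csrp1 and Nr2f2 and above them for Anpep, Angpt2 and Tbx18, and the groups overlap for Tpm2.

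Among 17 genes of the signals between endothelium and mural cells, all tested, 0 passed with edgeR or DESeq2, and the median log2 fold change was -0.18. With the replicate term in the edgeR fit 3 passed, which were Angpt2 (adjusted p = 0.0143), S1pr1 (adjusted p = 0.0351) and Cdh2 (adjusted p = 0.0198). That fit called 2.49% of all genes tested. Angpt2, the angiopoietin that loosens mural cells from vessels, had 5.44 and 8.24 CPM in the mutant and 2.56 and 3.12 CPM in the wild-type libraries (log2 fold change 1.27, standard error 0.31, adjusted p = 0.425, edgeR). S1pr1, the sphingosine phosphate receptor of endothelium, had 23.6 and 26.5 CPM in the mutant and 44.1 and 32.2 CPM in the wild-type libraries (log2 fold change -0.61, adjusted p = 0.553, edgeR). Cdh2, the N-cadherin that joins endothelium to pericytes, had 68.0 and 72.6 CPM in the mutant and 93.9 CPM in both wild-type libraries (log2 fold change -0.42, adjusted p = 0.368, edgeR). The groups did not overlap for these 3 genes and for 10 of the 17 in all, where 30.9% of all genes tested did not. Tgfbr1, the most abundant of the list, had a log2 fold change of 0.0048.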

How the data were processed

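RNA-seq read counts per gene symbol were analysed for 2 mutant and 2 wild-type libraries of E13.5 mouse ovaries. The authors aligned the reads with STAR 2.6.1d and counted them with summarizeOverlaps. The deposited values are raw counts, not normalized and not pooled. The submitters' processing notes name mm9, and the gene annotation and strand setting are not given in the sources used here. All 4 count columns were matched to samples by genotype and replicate number, and 0 were left unused.

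The counts were analysed in R 4.3.3 with edgeR 4.0.16 (TMM normalization, filterByExpr, quasi-likelihood F-test, genotype as the only factor, Benjamini-Hochberg over 15442 genes, threshold 0.05). Each standard error is the absolute log2 difference divided by the square root of F. An alternative was DESeq2 1.42.0, which the study ran with default settings. Here the threshold in its results step was set to 0.05, which is not the default. Other alternatives were RLE normalization, no filter, at least 10 counts in every library, a replicate block and each library left out. The fits were tried on simulated data with changes of a fixed size and no replicate effect. That trial therefore does not bear on how they handle a replicate effect or smaller changes. Gene positions and exon lengths came from GENCODE M1 on NCBIM37 (mm9), and promoters from RefSeq on GRCm38.p6, matched by symbol only.

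The 10 genes and all lists were chosen with earlier results of these data known. Named from each list were genes with an adjusted p under 0.05 in edgeR, with or without the block, or in DESeq2, and the 3 most abundant. Single markers of other cell types were named after their values were seen. With 2 libraries a group, the smallest exact permutation p is 0.333. Foxf1a could not be matched. The test of the replicate number and its alternatives were added after the data were seen.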

Additional observations from a re-analysis of the deposited data

How the results depend on the processing

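The 9 calls over all genes (2 higher, 7 lower) became 105 with DESeq2, 118 with DESeq2 and the replicate block, 28 with no filter on low counts and 19 with at least 10 counts in every library, and the number with each library left out ranged from 2 to 155. With the replicate block in edgeR 385 genes passed, 180 higher and 205 lower. The labels give the libraries of both genotypes the same replicate numbers without saying what they share, the column names give them consecutive library numbers, and the deviations of same-numbered libraries from the genotype mean had a correlation of 0.470 across 15442 genes, which are not independent. The block called 1 of the smooth muscle and pericyte genes, Acta2 (log2 fold change -0.61, standard error 0.11, adjusted p = 0.00571 in edgeR), where the fit without it called 0. DESeq2 with the block gave Acta2 an adjusted p of 0.157. Over the settings run for Acta2 the adjusted p ranged from 0.00571 to 1.00. With each library left out the number of these genes called was 0 or 1, the latter without mutant replicate 1.

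The 1 call in the related lists became 4 with DESeq2, 4 with DESeq2 and the replicate block, 2 with no filter, 2 with at least 10 counts and 12 with the replicate block in edgeR, and ranged from 0 to 6 with each library left out. Tested in edgeR were 25 other contractile genes, 16 regulators, 19 other mural genes and 17 signal genes. Pdgfrb and Notch3 are in both the mural and the signal list. Over all genes edgeR called 0.0583%, and 2.49% with the replicate block. DESeq2 called 0.694% of all genes with an adjusted p, and 0.759% with the block. Whether the lists differ from all genes in these shares was not tested. With each library left out in turn, log2 fold changes that had not passed took both signs, from -0.25 to 0.31 for Myh11, from -0.55 to 0.45 for Des, from -3.17 to 0.45 for Actg2, from -0.35 to 0.0056 for Rgs5, from -0.20 to 0.41 for Abcc9 and from -0.53 to 0.10 for Kcnj8. The direction of Acta2, Tagln and Cspg4 was the same in each setting run. The test of the replicate number called 3 genes, and 1 with DESeq2. The cause of these moves was not tested, except that leaving out a library or filtering changes which libraries or genes enter. Near the floor, Cnn1 and Actg2 could not show a change of the size seen in Acta2.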
